A study of Felis catus with 12 samples.

Results

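The genes of 7 matrix proteins, TNC, POSTN, THBS1, THBS4, FN1, SPARC and SPP1, were followed through left ventricular RNA of 12 cats. They were taken by symbol from a table of 30785 genes, and all 7 were found. The set was assembled because TNC and POSTN differ strongly between libraries, so the spread of those 2 genes is a description here and was not tested. The tissue came from the left ventricular free wall of client-owned domestic cats, collected after death, and no cat received a treatment for the study. Polyadenylated RNA was sequenced directly, without conversion to cDNA, by Oxford Nanopore technology. Each cat gave 1 library, and 3 flow cells carried 4 barcoded libraries each. Flow cell A carried cats 11, 23, 30 and 31, flow cell B cats 10, 15, 35 and 36, and flow cell C cats 37, 38, 29 and 22.

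The study grouped its cats by arterial thromboembolism (ATE), congestive heart failure (HF) or no documented cardiac death, but the sample labels give only the cat number, the flow cell and the barcode. No comparison of outcome, age or fibrosis was therefore made, and the flow cell is the only grouping used. Each flow cell held different cats, so a difference between flow cells and a difference between the cats on them cannot be told apart. The libraries labelled 22 and 29 are not among the cats that the study lists as sequenced, and they are named by their labels. There was no repeat library of any cat, so the spread within a flow cell is a spread between cats.

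Matricellular proteins are secreted into the extracellular matrix, where they act on cells and on growth factors more than as structural fibers. They bind integrins, syndecans, CD36, CD44 and CD47 on the cell surface, and several of them guide how collagen is laid down and cross-linked. Most are scarce in healthy adult myocardium and are known to reappear with injury, pressure overload and scar formation. Fibronectin is a structural glycoprotein that is often grouped with them because it forms the scaffold on which collagens and tenascin-C assemble.

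Levels are given as deposited values, which are reads on a gene divided by the size factor of the library. The libraries held 789257 to 2263110 reads on genes, a 2.87-fold range, with the highest total in cat 11 and the lowest in cat 23, both on flow cell A. MYL2, the ventricular regulatory myosin light chain, lay between 62266 and 165234 in all 12 libraries, so the defining ventricular marker was present throughout. MYL7, its atrial counterpart, reached 617 in cat 35 and 296 in cat 29 and was at most 110 in the other 10 cats. Cat 35 also stood apart in macrophage and neutrophil genes, with CD163 at 388 and S100A9 at 637, against at most 122 and 155 elsewhere. Calls of the 7 genes and counts of calls in the gene lists were recomputed with each library left out in turn, and changes are given beside them. Since the tissue was sequenced in bulk, fewer cells of a type and less RNA per cell cannot be told apart.

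TNC encodes tenascin-C, a large glycoprotein that loosens cell attachment and is deposited at sites of active remodeling. On flow cell A it was at 709 in cat 11, 99.4 in cat 23, 84.2 in cat 30 and 167 in cat 31. On flow cell B it was at 5.64 in cat 10, 0 in cat 15, 9.45 in cat 35 and 17.8 in cat 36. On flow cell C it was at 1.43 in cat 37, 0.735 in cat 38, 0 in cat 29 and 8.10 in cat 22. All 4 cats of flow cell A were above the other 8, and the ranges were far apart. The same separation was found in 1.7% of the 8820 genes with enough reads to be tested, and since TNC was picked for its spread nothing is read from it. Behind these values stood 74 to 1468 reads in the cats of flow cell A and 0 to 20 reads in the others. A count of 0 allows up to 3 reads as a one-sided limit, which corresponds to 4.08 in cat 15 and 3.33 in cat 29, and the 2-sided 95% intervals reached 5.02 and 4.09. TNC was thus below detection at this depth in those cats and not shown to be absent. Cat 11 alone held 1468 of the 1897 TNC reads.

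POSTN encodes periostin, which activated fibroblasts secrete and which promotes collagen cross-linking. Its order among the cats was different. On flow cell A it was at 42.5 in cat 11, 94.0 in cat 23, 12.6 in cat 30 and 83.7 in cat 31. Flow cell C had 71.5 in cat 37, 17.6 in cat 38, 7.76 in cat 29 and 49.96 in cat 22, a range that overlapped that of flow cell A. On flow cell B it was at 3.38 in cat 10, 0 in cat 15, 1.58 in cat 35 and 0 in cat 36. All 4 cats of flow cell B, with 0 to 3 reads each, were thus below the other 8, which had 7 to 105 reads, as in 0.533% of tested genes. Since POSTN too was picked for its spread, nothing is read from this share. The one-sided limits for a count of 0 were 4.08 in cat 15 and 2.67 in cat 36, and the 2-sided 95% intervals reached 5.02 and 3.28. Cat 37 illustrates the contrast between these genes, since its POSTN ranked among the highest with 50 reads while TNC had 1 read in the same library.

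**Figure D1:**
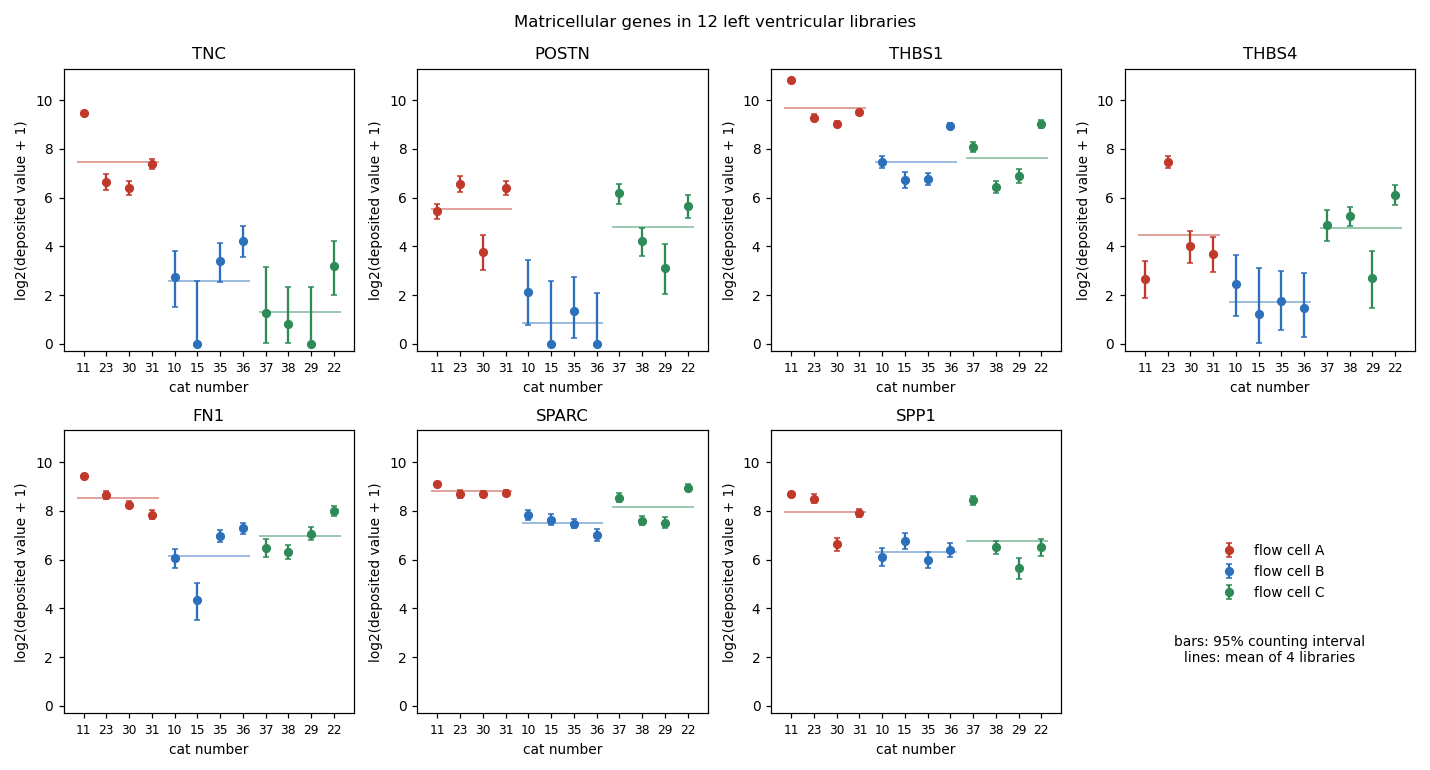
Level of each of the 7 genes in each of the 12 libraries, as log2(deposited value + 1), with cats on the horizontal axis grouped by flow cell. Points are single libraries, bars are 95% Poisson intervals that cover counting error only, and horizontal lines are means of 4 libraries. TNC was high in all 4 cats of flow cell A, whereas POSTN and THBS4 were low in all 4 cats of flow cell B.

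THBS1 encodes thrombospondin-1, an activator of latent TGF-beta and a ligand of CD36 and CD47. On flow cell A it was at 1817 in cat 11, 623 in cat 23, 523 in cat 30 and 733 in cat 31. On flow cell B it was at 176 in cat 10, 106 in cat 15, 107 in cat 35 and 497 in cat 36. The values on flow cell C were 273 in cat 37, 86.0 in cat 38, 117 in cat 29 and 520 in cat 22. All 4 cats of flow cell A were above the other 8, as for TNC and in 1.7% of tested genes. The margin was narrow, with cat 30 at 523 against cat 22 at 520. The counting intervals of those 2 cats overlapped.

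THBS4 encodes thrombospondin-4, a thrombospondin of heart, tendon and muscle. It was at 5.31 in cat 11, 175 in cat 23, 15.2 in cat 30 and 12.0 in cat 31 on flow cell A. It was at 4.51 in cat 10, 1.36 in cat 15, 2.36 in cat 35 and 1.78 in cat 36 on flow cell B, from 1 to 4 reads each. It was at 28.6 in cat 37, 36.8 in cat 38, 5.54 in cat 29 and 68.9 in cat 22 on flow cell C. The cats of flow cell B were below the other 8, as in 0.533% of tested genes. Nothing is read from this share, since only libraries of A and C held enough THBS4 reads for the test. The margin was narrow, with 4 reads in cat 10 (4.51) against 5 reads in cat 29 (5.54) and 11 reads in cat 11 (5.31). The counting intervals of these cats overlapped. Cat 23 held 130 of the 310 THBS4 reads although its library was the shallowest, and cat 11, the highest in TNC and THBS1, ranked 8 of the 12 with 11 reads. The paralogs THBS1 and THBS4 therefore ordered the cats in different ways.

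FN1, the fibronectin gene, was at 681 in cat 11, 400.3 in cat 23, 304 in cat 30 and 229.7 in cat 31 on flow cell A. On flow cell B it was at 65.4 in cat 10, 19.1 in cat 15, 124 in cat 35 and 155 in cat 36. On flow cell C it was at 88.7 in cat 37, 78.7 in cat 38, 133 in cat 29 and 257 in cat 22. Only cat 22 of the other 8 reached into the range of flow cell A, above cat 31.

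SPARC, which encodes a collagen-binding protein needed for procollagen processing, varied least. It was at 556 in cat 11, 409.7 in cat 23, 412 in cat 30 and 424 in cat 31 on flow cell A. On flow cell B it was at 228 in cat 10, 199 in cat 15, 177 in cat 35 and 128 in cat 36. On flow cell C it was at 370.5 in cat 37, 193 in cat 38, 182 in cat 29 and 493 in cat 22. Cat 22 again lay within the range of flow cell A, and cats 37 and 22 lay well above cats 38 and 29 of their own flow cell.

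SPP1 encodes osteopontin, a ligand of integrins and CD44 that macrophages and fibroblasts secrete. It was at 407 in cat 11, 361 in cat 23, 98.5 in cat 30 and 242 in cat 31 on flow cell A. On flow cell B it was at 68.8 in cat 10, 108 in cat 15, 62.2 in cat 35 and 83.7 in cat 36. The libraries of flow cell C were at 343 in cat 37, 89.7 in cat 38, 48.8 in cat 29 and 90.5 in cat 22. High SPP1 thus joined cats 11, 23 and 31 with cat 37, and cat 30 fell among the low cats. In cat 35, the library with the highest macrophage markers, SPP1 was the second lowest of the 12.

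Neighbors in these orders were often not separable by counting error. The 95% counting intervals overlapped in 8 of the 11 neighboring pairs for TNC, 10 for POSTN and 9 for THBS4. For TNC, cat 11 stood above cat 31, cat 31 above cat 23, and cat 30 above cat 36. For POSTN the only separated neighbors were cats 11 and 38. THBS1, with more reads, had 5 overlapping pairs of 11 and FN1 had 7, while SPARC and SPP1 had 9 each.

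The standard deviation (SD) of log2(value + 1) over the 12 libraries was 3.11 for TNC and 2.42 for POSTN, against a median of 0.58 over all 8820 tested genes, which had 10 or more reads in 3 or more libraries. THBS4 had an SD of 1.96, THBS1 of 1.39, FN1 of 1.35, SPP1 of 1.07 and SPARC of 0.70. SPARC lay above the median gene, at the 66.8th percentile, and THBS4 at the 99.7th. All 7 genes met the read minimum, but TNC did so with 6 libraries and POSTN and THBS4 with 7 each, mainly those in which they were high. With flow cell means subtracted, the SD of TNC fell to 1.54, of POSTN to 1.25 and of THBS4 to 1.497. Much of the spread of TNC and POSTN thus lay between flow cells, whereas THBS4 kept more of its spread within them. On the linear scale the coefficient of variation of TNC was 219%, where counting error alone gave 8.45%, and that of SPARC was 46.1% against 5.68%.

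**Figure D2:**
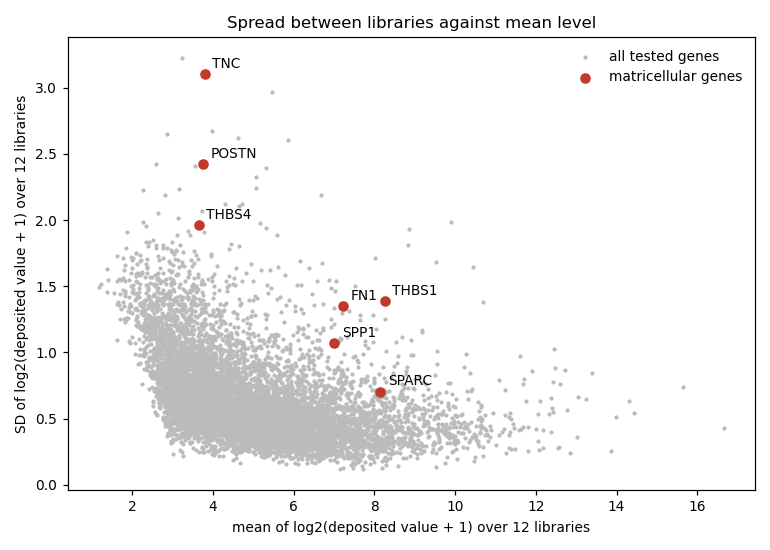
SD over the 12 libraries against the mean level, both of log2(deposited value + 1), for the 8820 tested genes (grey) and the 7 matricellular genes (red). TNC, POSTN and THBS4 lay at the upper edge for genes of their level, and SPARC lay close to other well-read genes.

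The comparison of flow cell A with flow cells B and C asks whether the libraries of A differed from the rest by more than cats differed within a flow cell. THBS1 was higher on flow cell A by 2.12 (standard error 0.48) on the log2(value + 1) scale, a 4.34-fold difference, with means of 924 ± 601 on A, 222 ± 186 on B and 249 ± 198 on C (SD, n = 4 each, limma adjusted p = 0.0197). FN1 was higher by 1.98 (standard error 0.46), a 3.94-fold difference, with means of 404 ± 198, 91.0 ± 60.7 and 139 ± 81.7 (SD, n = 4 each, limma adjusted p = 0.0222). SPARC was higher by 0.99 (standard error 0.26), a 1.98-fold difference, with means of 450.4 ± 70.7, 183 ± 42.0 and 309 ± 150 (SD, n = 4 each, limma adjusted p = 0.0372). These 3 of the 5 tested members passed, in a comparison that called 1.81% of all tested genes as higher on flow cell A and 5.37% in either direction. The median difference of all tested genes was 0.03.

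SPP1 and THBS4 did not pass. The SPP1 difference was 1.39 (standard error 0.43, limma adjusted p = 0.0697), with a 95% interval of 0.48 to 2.30. That of THBS4 was 1.22 (standard error 0.73, limma adjusted p = 0.344), with an interval of -0.32 to 2.76, and it was 0.22 without cat 23. For TNC the difference was 5.53 (standard error 0.74) and for POSTN 2.71 (standard error 0.62), both given without a test because the genes were picked for their spread. Among the 8820 differences TNC ranked 2 from the top, POSTN 11, THBS1 40, FN1 50, SPP1 182, THBS4 262 and SPARC 469. The ranks of TNC and POSTN follow from how they were picked, so nothing is read from them. All libraries of flow cell A lay above the other 8 in TNC and THBS1, as in 1.7% of tested genes. Nothing is read from this for TNC, which was picked, and for THBS1 the margin was only 523 against 520.

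Cat 11 carried part of these differences. Without it none of the 5 tested members passed, with adjusted p-values of 0.110 for THBS1, 0.118 for FN1 and 0.154 for SPARC by limma, and the number of genes called fell from 474 to 89. Their differences were then 1.73, 1.69 and 0.88, and that of TNC was 4.87. Without cat 31, THBS1 did not pass (limma adjusted p = 0.0543) and FN1 did, with 170 genes called. SPARC also did not pass without cats 23, 30, 31, 15, 36, 38 or 29 in turn, with limma adjusted p-values of 0.0506 to 0.0870, whereas SPP1 passed without cat 30 (0.0191) or cat 37 (0.0162).

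**Figure D3:**
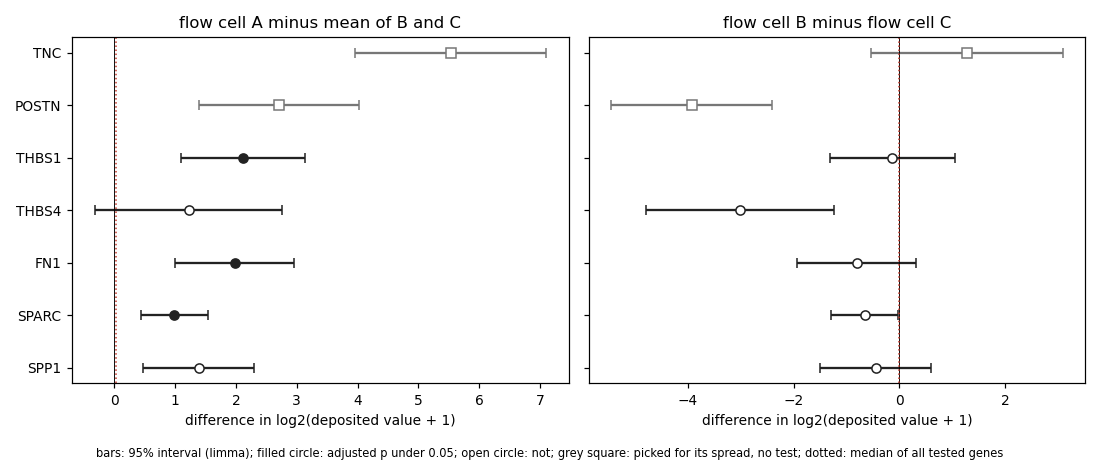
Difference in mean log2(deposited value + 1) of each gene between flow cell A and the mean of flow cells B and C (left) and between flow cells B and C (right), with 95% intervals from limma. Filled circles mark an adjusted p under 0.05, which THBS1, FN1 and SPARC reached on the left, and grey squares mark TNC and POSTN, which were not tested.

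Between flow cells B and C, which both exclude the libraries of A, limma called none of the 8820 genes (0%). Without adjustment 696 genes (7.89%) had a p under 0.05, edgeR called 0 and DESeq2 23. POSTN was lower on flow cell B by a log2 difference of -3.93 (standard error 0.72, no test), the third lowest of all tested genes. THBS4 was at -3.01 (standard error 0.84, limma adjusted p = 0.376), rank 7 from the lowest, with means of 2.50 ± 1.40 on B and 34.9 ± 26.2 on C (SD, n = 4 each). In both genes every cat of B was below every cat of C, as in 2.05% of tested genes. Nothing is read from this share or from the ranks of these genes. POSTN was picked for its spread, and THBS4 met the read minimum through libraries of A and C only. The other members were closer together, with THBS1 at -0.13, SPP1 at -0.45, SPARC at -0.66, FN1 at -0.81 and TNC at 1.27. None of the tested ones passed (limma adjusted p = 0.612 to 0.979), and the 95% interval of THBS1 ran from -1.31 to 1.05.

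The 7 genes followed different orders across the cats. The correlations below are descriptions over 12 libraries that share flow cells, with no p, because the genes were chosen together. TNC rose and fell with THBS1 (Pearson's r = 0.89, Spearman's rho = 0.88) and with FN1 (r = 0.83, rho = 0.81). Within flow cells, after their means were subtracted, r was 0.80 for THBS1 and 0.85 for FN1. On flow cells B and C TNC had 0 to 20 reads per library, so these centred values rest partly on counts near the limit of detection. With cats 11 and 31 left out, whose TNC lay farthest from its median, r was 0.79 and 0.78.

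POSTN was closest to SPARC (r = 0.83, rho = 0.70) and THBS4 (r = 0.80, rho = 0.84), and the centred values were 0.62 and 0.56. With TNC, the other gene that was picked, POSTN had r = 0.44 (rho = 0.43, centred 0.36). TNC and THBS4 had r = 0.16, and 0.02 after centring. THBS1 and THBS4 had r = 0.26, which was 0.003 after centring and 0.63 with cats 11 and 38 left out, whose THBS1 lay farthest from its median, so the value rests on those libraries. FN1 and SPP1 had r = 0.45, which turned to -0.11 after centring.

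**Figure D4:**
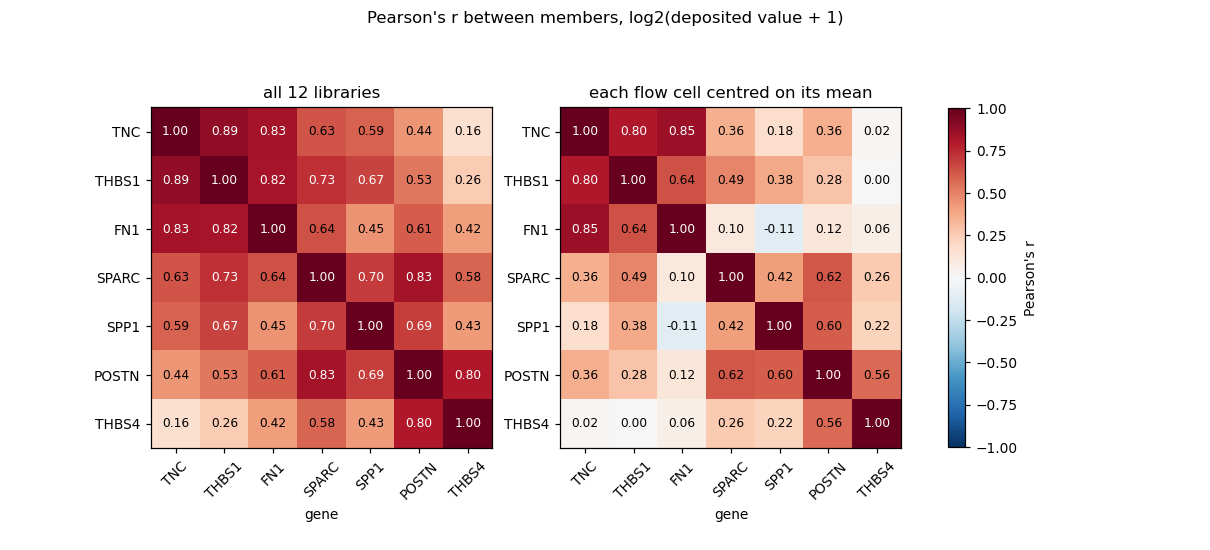
Pearson's r of log2(deposited value + 1) between the 7 genes over all 12 libraries (left) and with flow cell means subtracted (right). TNC, THBS1 and FN1 had r of 0.82 to 0.89 with each other on the left and 0.64 to 0.85 on the right, and POSTN had its higher values with SPARC, THBS4 and SPP1.

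Among all tested genes, those with the pattern most like TNC over the 12 libraries were UGDH (r = 0.94), which makes the UDP-glucuronate used for hyaluronan, ARPC5 (r = 0.93), a subunit of the actin branching complex, GNPNAT1, an enzyme of hexosamine synthesis, NDE1 and PHLDA2 (r = 0.92 each). UGDH ranged from 118 to 432 on flow cell A and from 22.1 to 102 elsewhere, and its r with TNC was 0.77 after centring on flow cells and 0.89 without cats 11 and 31. For POSTN they were the fibrillar collagen genes COL3A1 (r = 0.94) and COL1A2 (r = 0.91), LOXL1 (r = 0.92), which cross-links elastin and collagen, RBPMS2 (r = 0.92) and CTHRC1 (r = 0.91), a secreted protein of activated fibroblasts. Their r with POSTN after centring was 0.66 for COL1A2 to 0.89 for RBPMS2.

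For THBS1 the 5 closest genes were DLG1 (r = 0.96), the receptor tyrosine kinase gene AXL (r = 0.93), VASP (r = 0.93), which promotes actin filament growth, PPAT (r = 0.93) and HBEGF (r = 0.92), an EGF receptor ligand. For THBS4 they were NPR3 (r = 0.92), the clearance receptor of natriuretic peptides, the proteoglycan gene LUM (r = 0.90), FAT1 (r = 0.89), the Wnt modulator gene SFRP2 (r = 0.89) and ELL2 (r = 0.89). NPR3 was at 99.4 in its highest library and at 5.03 in the median one. The 2 thrombospondin genes had no gene in common among their 5 closest. The same held for every pair of members, TNC and THBS1 included, so it does not set these 2 genes apart.

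FN1 was closest to the chemokine gene CXCL6 (r = 0.96), LRRC59 (r = 0.95), TSKU (r = 0.95), COL6A3 (r = 0.94) and the fibrillin gene FBN1 (r = 0.93). CXCL6 lay between 41.2 and 115 on flow cell A and between 6.81 and 32.4 elsewhere. SPARC was closest to CB1H4orf3 (r = 0.94), LYPLA1 (r = 0.93), GTF2A1 (r = 0.93), YWHAG (r = 0.91) and DPYSL3 (r = 0.91). SPP1 had the loosest match, with GYG1, the primer of glycogen synthesis, at r = 0.90 but rho = 0.65, followed by TNKS2, ARF4, FADS3 and ELOA (r = 0.86 to 0.89). These are the highest of 8819 correlations each, and TNC had r above 0.8 with 170 genes, POSTN with 66 and SPP1 with 35.

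Of 18 receptor genes for these and other matrix proteins, 14 were tested, and limma called 3 as higher on flow cell A. Of all tested genes 1.81% were called so. The list median was 0.65, against 0.03 for all tested genes. None of the 3 receptors passed without cat 11, and ITGB1 did not pass without cats 31, 15 or 38. ITGB1, the common beta subunit of collagen, fibronectin and tenascin receptors, was at 461 to 1084 on flow cell A and 285 to 456 elsewhere (difference 0.93, standard error 0.23, limma adjusted p = 0.0303). CD44, the osteopontin and hyaluronan receptor, was at 90.1 to 513 against 24.5 to 70.9 (2.13, standard error 0.42, adjusted p = 0.0103), and SDC2, a syndecan, at 60.6 to 178 against 20.3 to 49.9 (1.64, standard error 0.32, adjusted p = 0.00959). CD44 and SDC2 are named after their values were seen. The thrombospondin receptors CD36 and CD47 did not pass, with differences of -0.05 (adjusted p = 0.914) and 0.46 (adjusted p = 0.28) by limma. Nor did ITGA7, at -0.13 (limma adjusted p = 0.855).

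Of 18 related matricellular genes, 11 were tested and none passed in either direction, and the list median was 0.01. SPARCL1, the paralog of SPARC, was at 500.1 to 1483 on flow cell A and 380.5 to 1074 elsewhere (difference 0.56, limma adjusted p = 0.295). CTGF, also called CCN2, a profibrotic matricellular gene, was highest in cat 23 at 1596 and in cat 22 at 1530 (difference 0.96, limma adjusted p = 0.243). CYR61, also called CCN1, had a difference of 0.91 (limma adjusted p = 0.172) and TGFBI one of 0.51 (limma adjusted p = 0.622). The tenascin genes TNN and TNR had no read in any library.

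Of 12 genes of the collagen network that is assembled with these proteins, 10 were tested and 7, all of them collagen genes, were higher on flow cell A (limma), a call made for 1.81% of all tested genes. The list median was 1.65. Without cat 11, 4 passed, COL1A1, COL1A2, COL3A1 and COL5A2, and without cat 31, 5 did. The 3 that did not pass were COL14A1 at 0.45 (limma adjusted p = 0.787), LOXL1 at 0.91 (limma adjusted p = 0.206) and BMP1, a procollagen protease, at -0.19 (limma adjusted p = 0.875). COL1A2 was at 221 to 591 on flow cell A and 13.6 to 321 elsewhere (difference 2.00, standard error 0.41, limma adjusted p = 0.0122), and COL3A1 at 147 to 525 against 29.95 to 263 (1.84, standard error 0.34, adjusted p = 0.00857). COL6A1 differed by 1.46 (adjusted p = 0.0192) and COL6A3 by 1.92 (adjusted p = 0.0141) by limma. Between flow cells B and C none passed, but all 10 were lower on B in value, with a list median of -1.15 against -0.002 for all genes. The summed level of the list was 128 to 443 on B, 419 to 1023 on C and 801 to 1809 on A. Its r over 12 libraries was 0.90 with POSTN, 0.84 with FN1, 0.80 with SPARC, 0.71 with THBS4, 0.70 with TNC, 0.65 with THBS1 and 0.60 with SPP1. For this and the other lists, r was computed without subtracting flow cell means, so differences between flow cells enter it. POSTN had only 0 to 3 reads per library on flow cell B.

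**Figure D5:**
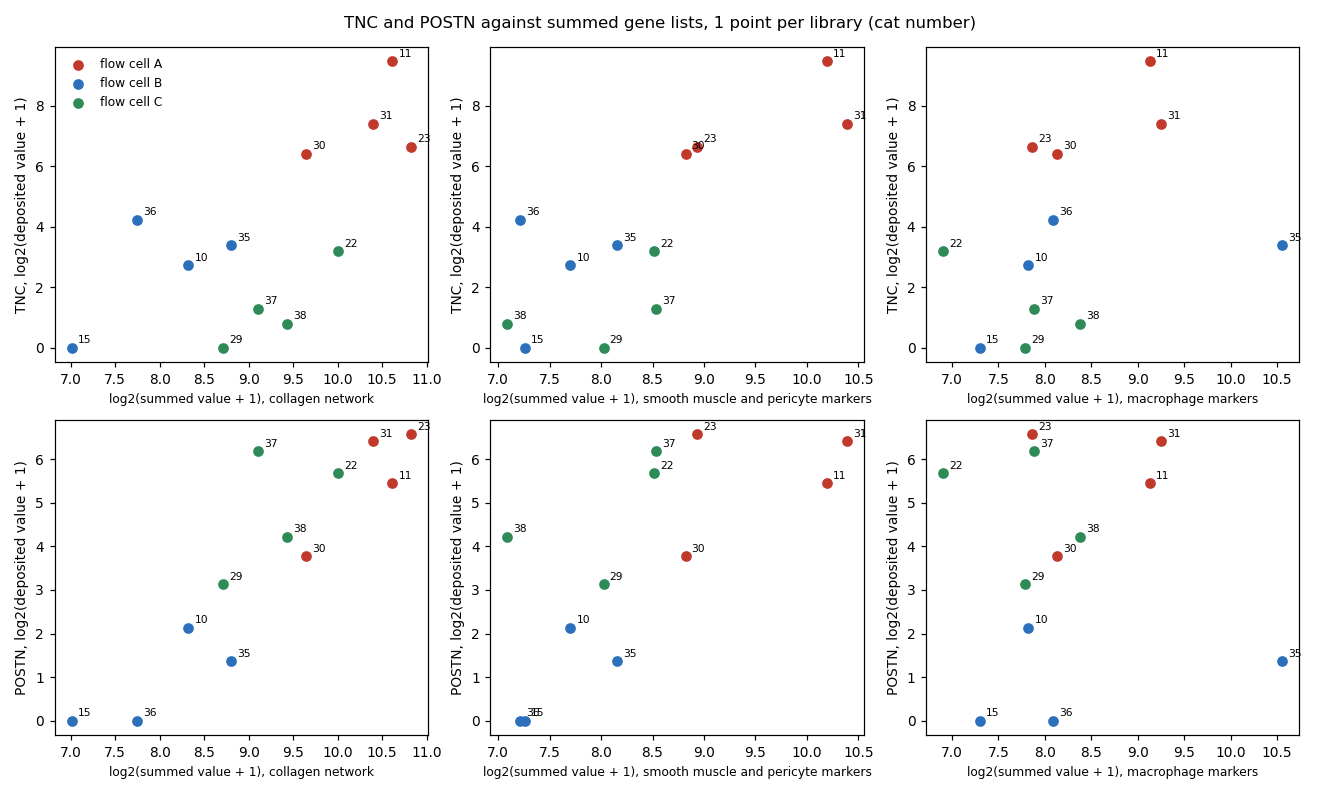
TNC (top) and POSTN (bottom), as log2(deposited value + 1), against the summed deposited values of the collagen network, smooth muscle and macrophage lists on a log2 scale, with 1 point per library labelled by cat. POSTN rose with the collagen sum (r = 0.90, flow cell means not subtracted), and TNC was high in the 4 cats of flow cell A. Cat 35 lay far to the right for macrophage markers with low TNC and POSTN.

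Of the 10 fibroblast markers, all tested, 3 were higher on flow cell A, a call made for 1.81% of all tested genes. These were COL1A1, COL1A2 and COL3A1, which are also in the collagen list and passed with any single library left out. DCN, a proteoglycan of resident fibroblasts, differed by 0.44 (limma adjusted p = 0.478) and LUM by 0.83 (limma adjusted p = 0.261). The list median was 0.54, and the summed level was 1223 to 3488 on flow cell A and 513 to 1985 elsewhere. Of the activated fibroblast markers 7 were tested and 2 were higher, against the same 1.81% of all tested genes. These were COL8A1 (1.75, limma adjusted p = 0.0224) and TAGLN (2.63, limma adjusted p = 0.00764), while ACTA2 differed by 0.36 (limma adjusted p = 0.454). Without cat 11 or cat 23, TAGLN alone passed. The sum of this list was 859 to 2223 on flow cell A and 347 to 1889 elsewhere, with r = 0.86 with SPARC, 0.83 with THBS1 and 0.81 with POSTN.

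Of 6 tested smooth muscle and pericyte markers, CNN1 and TAGLN were higher on flow cell A, a call made for 1.81% of all tested genes. Both passed with any single library left out. However, CNN1 met the read minimum through the libraries of flow cell A, where it was high, so nothing is read from its call. CNN1, the smooth muscle calponin gene, was at 259 in cat 11, 76.6 in cat 23, 47.1 in cat 30 and 439 in cat 31, and at 0 to 19.2 in the other 8 cats (difference 5.90, standard error 0.76, limma adjusted p = 0.00232). TAGLN is also in the activated fibroblast list. MYH11, the smooth muscle myosin heavy chain, was at 2.39 to 16.8 on flow cell A and 1.36 to 17.6 elsewhere (difference 0.14, limma adjusted p = 0.910). RGS5, a pericyte marker, differed by 0.03 (limma adjusted p = 0.972) and PDGFRB by 0.43 (limma adjusted p = 0.622). The summed level of that list was 451 to 1336 on flow cell A and 135 to 371 elsewhere, and its r was 0.80 with TNC and 0.25 with THBS4. The part of these markers in the TNC, THBS1 and FN1 differences was not tested.

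Of 10 cardiomyocyte markers, 5 were lower on flow cell A, a call made for 3.56% of all tested genes, and the list median was -0.93. Without cat 11, TNNT2 and MYL3 alone passed, without cat 31, 3 did, and with other single libraries left out 4 to 7 did. MYL3, the ventricular essential light chain, was at 8579 to 14609 on flow cell A and 19412 to 37044 elsewhere (difference -1.11, standard error 0.22, limma adjusted p = 0.0101). MYL2 differed by -0.16 (limma adjusted p = 0.791), CKM by -0.91 (limma adjusted p = 0.123) and ACTC1 by 0.59 (limma adjusted p = 0.363). The summed list was 149275 to 213739 on flow cell A and 161552 to 398163 elsewhere, so the ranges overlapped. Its part in the member differences was not tested.

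Immune markers had another order across the cats. None of 8 tested macrophage markers or 4 tested neutrophil and lymphocyte markers passed, and C1QB was at 55.1 to 168 on flow cell A against 426 in cat 35. All 8 and all 4 were higher on flow cell A in value, with list medians of 0.47 and 0.39. Between flow cells B and C, 8 and 3 of them were higher on B, which held cat 35, with list medians of 0.86 and 2.18. Being higher in value was thus not particular to flow cell A. The macrophage sum, 232 to 610 on flow cell A and 119 to 1506 elsewhere, had r = 0.08 with SPP1, 0.40 with TNC and -0.03 with POSTN. These r include cat 35, which had the sum of 1506. None of 7 endothelial markers passed, with a list median of 0.05, and VWF differed by -0.53 (limma adjusted p = 0.494).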

How the data were processed

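Left ventricular RNA of 12 cats was sequenced directly (SQK-RNA002 kit). Guppy was used by the authors for base calling and Minimap2 for alignment to the felCat9 genome, and after a quality filter FeatureCounts gave the reads per gene. The deposited table holds signal values, which are reads divided by a median-of-ratios size factor per library (0.699 to 2.07). All values (100%) were whole multiples of 1 read within 1e-06 reads, and recomputed factors differed by a relative 2.89e-15 at most, so the whole reads were recovered, 15753626 in all.

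Libraries were grouped by the flow cell in their labels. A gene was tested if 3 or more libraries held 10 or more of its reads (8820 of 30785). limma (3.58.1, R 4.3.3) with an intensity trend was fitted to log2(value + 1) with flow cell as a factor, for A minus the mean of B and C and for B minus C, with Benjamini-Hochberg adjustment over all tested genes and a threshold of 0.05. A fold change on this scale understates the change of low genes. edgeR (4.0.16) and DESeq2 (1.42.0) were run on the recovered reads. On simulated data with 200 of 8820 genes changed by a log2 fold of 3, limma recovered 93.5% (A against B and C) and 84.5% (B against C). Smaller changes, such as those of most members, were not simulated, so their recovery is not known. Counting intervals are 95% Poisson intervals and, like the limit of 3 reads for a count of 0, cover counting error only. A p-value sets a difference between flow cells against the spread between cats within flow cells.

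The members, the gene lists and the tests were chosen with earlier results of these data known. Named genes are the 7 members, for each the 5 tested genes with the highest Pearson's r over 12 libraries, and up to 4 genes per list by mean level. Others named were chosen after their values were seen, which are CD44, SDC2, COL1A1, COL5A2, COL14A1, LOXL1 and BMP1 as list members, MYH11, PDGFRB and TNNT2. Platelet, adipocyte, atrial and tendon lists had 1 or 2 tested genes each and none passed. Alternatives were pseudocounts of 0.5 and 2, other read minimums, TMM factors, unscaled reads, 2 flow cell levels, the barcode number as a block, and each library left out in turn. The counts of calls in the gene lists without single libraries, and the log2 scale for libraries that lay apart, were added after seeing the data. Sequences and coordinates were not used here.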

Additional observations from a re-analysis of the deposited data

Results flagged for a closer look

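For each of the 5 tested genes, the highest and the lowest library on each flow cell were compared with the rest of that flow cell, 15 groups of 4 libraries in all. In 4 groups 1 library lay apart by a larger share of the group's range of deposited values than Dixon's 95% critical value for 4 samples allows, where chance gives about 1 in 20 groups if values are normally distributed. On flow cell A, cat 11 lay apart with THBS1 at 1817 and SPARC at 556, and cat 23 with THBS4 at 175. On flow cell C, cat 37 lay apart with SPP1 at 343. On the log2(value + 1) scale, added after seeing the data, 1 of these remained past the critical value, SPARC in cat 11. Cat 11 had the deepest library and cat 23 the shallowest, and the part of depth in these values was not tested.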

How the results depend on the processing

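The count of genes called between flow cell A and the others was 474, and it was 102 on unscaled reads, 832 with DESeq2, and 89 to 524 when single libraries were left out. Of the called genes 33.8% were higher on flow cell A, against 94.1% on unscaled reads, which moved the median of all genes to 0.41, and 46.8% with edgeR (468 genes). The lowest counts were without cat 11 (89), cat 31 (170) and cat 15 (284). Between B and C the count of 0 became 1 with a pseudocount of 2, 5 on unscaled reads, 23 with DESeq2 and 0 to 2 with single libraries left out.

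The sign of the THBS1 difference between B and C turned on unscaled reads (0.0054) and without cats 15 (0.11), 35 (0.11), 37 (0.03) or 22 (0.34), over a range of -0.62 to 0.34 with single libraries left out. That of SPP1 turned without cat 37, over a range of -0.83 to 0.10. All other differences of the members kept their sign under the alternatives run. SPARC missed the threshold when every gene with a read was tested (limma adjusted p = 0.0542) and with 2 flow cell levels (0.0572). SPP1 passed with at least 10 reads in all 12 libraries (0.0454), on unscaled reads (0.028) and with DESeq2 (0.0278). That read minimum left out TNC, POSTN and THBS4. Barcode numbers do not pair the cats: deviations of the 12 pairs with the same number correlated at -0.083 to 0.11. With this replicate block 569 genes were called for A and 0 between B and C, and SPP1 passed (limma adjusted p = 0.0213). Depth limits TNC, POSTN and THBS4, which had fewer than 10 reads in 5 or 6 libraries.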
